A study of Mus musculus with 4 samples.

Results

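Hox genes encode homeodomain transcription factors that give cells along the head-to-tail axis their positional identity. In the mouse they lie in 4 clusters, Hoxa on chromosome 6, Hoxb on chromosome 11, Hoxc on chromosome 15 and Hoxd on chromosome 2, and are numbered by paralog group from 1, expressed earliest and furthest forward, to 13, expressed last and nearest the tail. Every gene whose symbol was Hox, a cluster letter and a number was taken, with 1 probe set per gene, the one with the highest mean over the 4 arrays. This gave 34 genes among 17097 genes measured. Other Hox genes were not analysed here.

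The cells came from embryoid bodies, aggregates of mouse embryonic stem cells started in hanging drops and left to differentiate spontaneously in suspension. The groups were Flk1+ and Flk1- cells of the Snai1 knockout line (KO) and Flk1+ and Flk1- cells of the control line (F/F), with 1 Affymetrix array each, sorted with an antibody against Flk1, the VEGF receptor encoded by Kdr that marks early lateral and blood-forming mesoderm. Snai1 is a transcriptional repressor of epithelial genes. All labels name day 4 except the source name of the KO Flk1- sample, which gives day 5 while its description gives day 4. How many clones or cultures stand behind a line was not given in the sources used here.

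Hox genes are switched on in order from group 1 towards group 13 as the primitive streak and tail bud produce mesoderm and neural tissue. Retinoic acid, Wnt and FGF signals and the Cdx factors activate them, Polycomb complexes keep them silent before that, and Trithorax proteins maintain their activity. Hox proteins bind DNA together with cofactors of the TALE family, the Pbx, Meis and Pknox proteins.

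The promoter windows of 3 genes are printed here, 2 because they belong to genes with signal whose windows hold a motif of a Hox partner or activator, and the other as the paralog of Hoxb1 that holds neither. Each runs from 250 bases before the gene start up to the start (RefSeq, GRCm38.p6), and capitals mark matches on either strand to TGATNNAT, a core of the joint Pbx and Hox site, or to TTTATG, a core of the Cdx site. The Hoxb1 window is chr11:96365508-96365757 on the plus strand, Hoxd1 chr2:74762730-74762979 on the plus strand and Hoxa7 chr6:52218574-52218823 on the minus strand.
Hoxb1: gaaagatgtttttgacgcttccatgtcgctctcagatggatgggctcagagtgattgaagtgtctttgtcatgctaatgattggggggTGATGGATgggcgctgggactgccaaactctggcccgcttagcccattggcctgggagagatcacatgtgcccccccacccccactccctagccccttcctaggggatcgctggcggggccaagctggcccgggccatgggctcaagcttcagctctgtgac
Hoxd1: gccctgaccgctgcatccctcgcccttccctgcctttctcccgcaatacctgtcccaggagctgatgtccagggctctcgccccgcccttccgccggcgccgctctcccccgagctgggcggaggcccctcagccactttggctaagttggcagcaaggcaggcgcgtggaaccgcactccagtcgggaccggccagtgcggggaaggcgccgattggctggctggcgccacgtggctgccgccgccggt
Hoxa7: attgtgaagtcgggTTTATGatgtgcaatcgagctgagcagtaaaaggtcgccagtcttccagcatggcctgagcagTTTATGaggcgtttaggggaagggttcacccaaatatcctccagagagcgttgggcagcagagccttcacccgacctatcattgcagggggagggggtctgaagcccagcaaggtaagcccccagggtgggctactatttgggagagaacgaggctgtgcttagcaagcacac
Hoxb1, which is known to maintain its own expression together with Pbx, has 1 match to TGATNNAT, which begins 162 bases before the start. Hoxa7 has 2 matches to TTTATG. The table held 24 windows for 22 Hox genes, 21 of them measured. TGATNNAT was found in 4 of these windows and in 7.68% of all 32851 promoters, and TTTATG in 5 and in 10.8%. The other windows with TGATNNAT were of Hoxa2, Hoxb8 and Hoxd11, and those with TTTATG of Hoxb8, Hoxd3, Hoxd4 and Hoxd11. None of these genes had signal on any array, by the floor described below. Of the 7 genes with signal that had a window, Hoxa3, Hoxb4, Hoxd8, Hoxa9 and Hoxd9 held neither motif. The E-box CAGGTG, the core bound by Snail family proteins, was in 0 of the 24 windows and in 17.2% of all promoters. A match describes letters and is not a binding site.

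Values are log2 expression values as the authors deposited them. A floor of 3.19, below which 40% of the values of all genes on the 4 arrays lie, separates genes with signal from the rest. Probe sets differ in how brightly they report a transcript, so values are compared between arrays for 1 gene and not between genes. Since each group had a single array, nothing was tested, and no difference given here has a replicate check. As measures of spread, 2 probe sets of the same gene differed in their genotype difference by an SD of 0.33 in Flk1+ and 0.29 in Flk1- cells, and genes below the floor on all arrays had differences with an SD of 0.18 and 0.17. In sorted populations, fewer cells that express a gene and less RNA per cell cannot be told apart.

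Between 10195 and 10302 genes passed the floor on each array. Kdr was at 9.03 and 8.92 in KO and F/F Flk1+ cells and at 3.88 and 4.55 in KO and F/F Flk1- cells, which follows the sort labels. Snai1 was at 1.88 in KO Flk1+ and 2.56 in F/F Flk1+ cells, and at 1.94 in KO Flk1- and 2.42 in F/F Flk1- cells. It was lower in KO cells of both fractions, but below the floor on all arrays, and does not check the genotype. The Gapdh control probe at the 3' end exceeded that at the 5' end, a measure of how evenly RNA was copied, by 1.47 in KO Flk1+, 2.05 in F/F Flk1+, 1.99 in KO Flk1- and 1.76 in F/F Flk1- cells. Its part in the Hox values was not tested.

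At the floor of 3.19, the Hox genes with signal were a small set from the first 9 paralog groups. Of the 34 genes, 11 were above the floor on at least 1 array, against 10955 of all 17097 genes. They were Hoxb1, Hoxb2, Hoxa3, Hoxb3, Hoxb4, Hoxb5, Hoxc5, Hoxa7, Hoxd8, Hoxa9 and Hoxd9. By cluster these were 5 of 10 Hoxb genes, 3 of 9 Hoxa genes, 2 of 9 Hoxd genes and 1 of 6 Hoxc genes. The 5 Hoxb genes are the 5 of lowest number in that cluster. None of the 10 genes of groups 10 to 13 (0 genes), which pattern the lumbar, sacral and tail levels and the limb and genital buds, was above the floor on any array, and their values ran from 1.32 to 2.84. This depends on the floor, since Hoxa13 and Hoxc13 passed the lower floors of 2.75 and 2.70 that were tried as alternatives. By array, 6 Hox genes were above the floor in KO Flk1+, 11 in F/F Flk1+, 6 in KO Flk1- and 7 in F/F Flk1- cells.

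**Figure D1:**
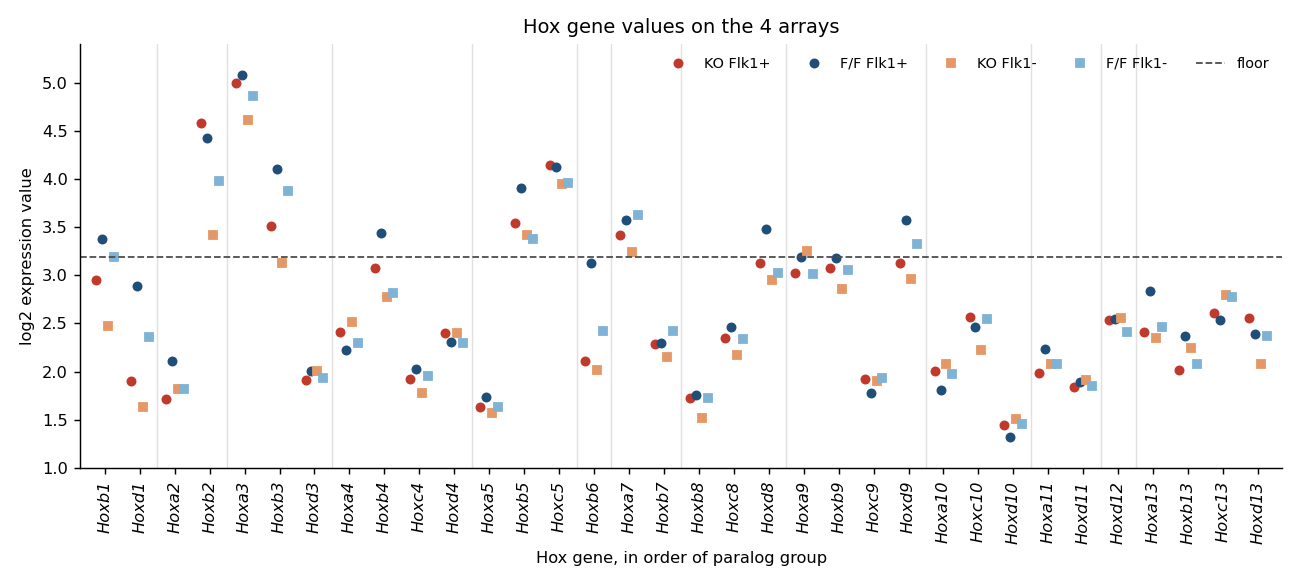
Log2 expression values of the 34 Hox genes, in order of paralog group (grey lines part the groups), with 1 point per array (circles for Flk1+, squares for Flk1- cells) and the floor of 3.19 as a dashed line. Points above the line stop at Hoxd9, and no gene of groups 10 to 13 reaches it.

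The floor cuts through a crowded range. Just inside it was Hoxa9, at 3.193 in F/F Flk1+ cells against a floor of 3.1919, and just outside were Hoxb1 in F/F Flk1- cells at 3.188, Hoxb9 in F/F Flk1+ cells at 3.18 and Hoxb6 in F/F Flk1+ cells at 3.13. A gene that passed through 1 bright array was bound to differ from that array, as Hoxb1, Hoxb4 and Hoxd8 did through the F/F Flk1+ array. Between KO and F/F Flk1+ cells the same holds for Hoxa9 and Hoxd9, and between F/F Flk1+ and Flk1- cells for Hoxa9. Between KO and F/F Flk1- cells it holds for Hoxb3 and Hoxd9 through the F/F array and for Hoxa9 through the KO array. Between KO Flk1+ and Flk1- cells it holds for Hoxb3 through the Flk1+ array and for Hoxa9 through the Flk1- array. Counts and medians over the genes that passed are therefore given as descriptions, beside those over all 34.

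The anterior genes of group 1 to 3 pattern the hindbrain and the tissues next to it. Hoxb1, expressed in the primitive streak and later in hindbrain rhombomere 4, was at 2.95 in KO Flk1+ and 3.38 in F/F Flk1+ cells, and at 2.48 in KO Flk1- and 3.19 in F/F Flk1- cells. Only the F/F Flk1+ value was above the floor, and both KO values were lower than their F/F counterparts. Against the floor, Hoxb1 was at least 1.14-fold lower in KO than in F/F Flk1+ cells, while in Flk1- cells neither value passed the floor and no fold is given.

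Hoxb2, a hindbrain gene and direct target of Hoxb1, was at 4.58 in KO Flk1+ and 4.43 in F/F Flk1+ cells, and at 3.42 in KO Flk1- and 3.98 in F/F Flk1- cells. It was above the floor on all 4 arrays. The knockout was 0.15 higher in Flk1+ cells and 0.56 lower in Flk1- cells, opposite in sign. The Flk1+ difference was smaller than the SD between probe sets, 0.33, so its direction is not established. Hoxb2 had 1 probe set. Its KO Flk1- value was the lowest of the 4, and the labels of that array disagree on the day.

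Hoxb3 was at 3.51 in KO Flk1+ and 4.10 in F/F Flk1+ cells, and at 3.13 in KO Flk1- and 3.87 in F/F Flk1- cells. Both KO values lay below both F/F values. The genotype differences were -0.59 in Flk1+ cells (1.51-fold lower) and -0.74 in Flk1- cells (at least 1.60-fold lower). A separate Hoxb3 probe set gave -0.66 and -1.26, the same direction in both fractions. The Hoxb3 gene model overlaps that of Hoxb4, and the probe sets could report a shared transcript.

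Hoxa3, which acts in the pharyngeal arches and their glands, was at 5.00 in KO Flk1+ and 5.08 in F/F Flk1+ cells, and at 4.61 in KO Flk1- and 4.86 in F/F Flk1- cells. The differences of -0.09 and -0.25 were smaller than the SD between probe sets. Its 4 probe sets disagreed, with genotype differences from -0.24 to 0.23 in Flk1+ and from -0.25 to 0.17 in Flk1- cells, and 2 of the 4 were below the floor on all arrays. The Hoxa3 gene model overlaps those of Hoxa4, Hoxa5 and Hoxa6, and the probe sets of Hoxa4 and Hoxa5 were below the floor on all arrays.

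In the middle of the clusters, Hoxb4, known for promoting the growth of blood stem cells, was at 3.07 in KO Flk1+ and 3.44 in F/F Flk1+ cells, and at 2.78 in KO Flk1- and 2.82 in F/F Flk1- cells. F/F Flk1+ was the only array above the floor, as with a separate Hoxb4 probe set, which was at 3.36 there and 3.00 in KO Flk1+ cells. Hoxb5, a marker of blood stem cells and of trunk mesoderm, was at 3.54 in KO Flk1+ and 3.90 in F/F Flk1+ cells, and at 3.41 in KO Flk1- and 3.37 in F/F Flk1- cells. For Hoxb5, too, the F/F Flk1+ array stood above the other 3.

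Hoxc5 was at 4.14 in KO Flk1+ and 4.12 in F/F Flk1+ cells, and at 3.95 in KO Flk1- and 3.96 in F/F Flk1- cells. It was the gene with the smallest genotype differences of the 11, 0.02 in Flk1+ and -0.01 in Flk1- cells, and the sign in Flk1- cells turned after quantile normalization. A separate Hoxc5 probe set gave 0.01 and -0.15.

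Toward the tail end of the genes with signal, Hoxa7, a trunk gene and known Cdx target, was at 3.42 in KO Flk1+ and 3.57 in F/F Flk1+ cells, and at 3.24 in KO Flk1- and 3.63 in F/F Flk1- cells. Both KO values were below both F/F values. The promoter window printed above is that of Hoxa7 with its TTTATG matches, and Cdx2 itself is described below.

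Hoxd9, a gene of the trunk and limb bud, was at 3.13 in KO Flk1+ and 3.57 in F/F Flk1+ cells, and at 2.97 in KO Flk1- and 3.33 in F/F Flk1- cells. Both F/F arrays were above the floor and both KO arrays below it, so Hoxd9 was at least 1.30-fold lower in KO than in F/F Flk1+ cells and at least 1.10-fold lower in KO than in F/F Flk1- cells. Hoxd8 was at 3.13 in KO Flk1+ and 3.48 in F/F Flk1+ cells, and at 2.95 in KO Flk1- and 3.02 in F/F Flk1- cells, and a separate Hoxd8 probe set was below the floor on all arrays. Hoxa9, a factor of blood progenitors, was at 3.02 in KO Flk1+ and 3.19 in F/F Flk1+ cells, and at 3.26 in KO Flk1- and 3.02 in F/F Flk1- cells, all close to the floor and in no common order.

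Set together, the KO against F/F comparison had Hox genes mostly on the low side, with small differences. For some of them the floor rule fixed the direction. In Flk1+ cells, 9 of the 11 genes above the floor were lower in the knockout, with a median of -0.35 beside -0.05 for all 10655 genes, and 6119 of those were lower. Of these 9, Hoxb1, Hoxb4, Hoxd8, Hoxa9 and Hoxd9 passed only through the F/F Flk1+ array and were bound to be lower. Of the genes above the floor on both arrays, Hoxa3, Hoxb3, Hoxb5 and Hoxa7 were lower and Hoxb2 and Hoxc5 higher. With low values set to the floor the median over the 11 was -0.18. Over all 34 Hox genes with no floor, 24 were lower, beside 9008 of all 17097 genes. The median was -0.10, beside -0.01 for all genes. At the 2-fold rule, 0 of 11 were higher, where 0.873% of all genes were, and 0 of 11 lower, where 0.976% were. At 1.5-fold, 1 of 11 was lower, Hoxb3, where 4.42% of all genes were, and 0 were higher, where 3.26% were. A single gene of 11 is close to that background.

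In Flk1- cells, 6 of the 8 genes above the floor were lower in the knockout, with a median of -0.31 beside 0.04 for all 10533 genes, of which 4540 were lower. Of these 6, Hoxb3 and Hoxd9 passed only through the F/F Flk1- array and were bound to be lower. Hoxa9, which was higher, passed only through the KO Flk1- array. With low values set to the floor the median over the 8 was -0.20. Centring the arrays made the count of lower genes 7 of 7, and quantile normalization 5 of 8. Over all 34 genes with no floor, 22 were lower, beside 7742 of all 17097 genes. The median was -0.06, beside 0.02 for all genes. At the 2-fold rule, 0 of 8 were higher (0.389% of all genes) and 0 of 8 lower (0.949%), and at 1.5-fold 1 of 8 was lower, again Hoxb3 (2.53%), and 0 higher (2.97%). With the mean of its probe sets Hoxb3 passed the 2-fold rule. This comparison rests on the array whose labels disagree on the day, and the Flk1+ comparison does not.

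**Figure D2:**
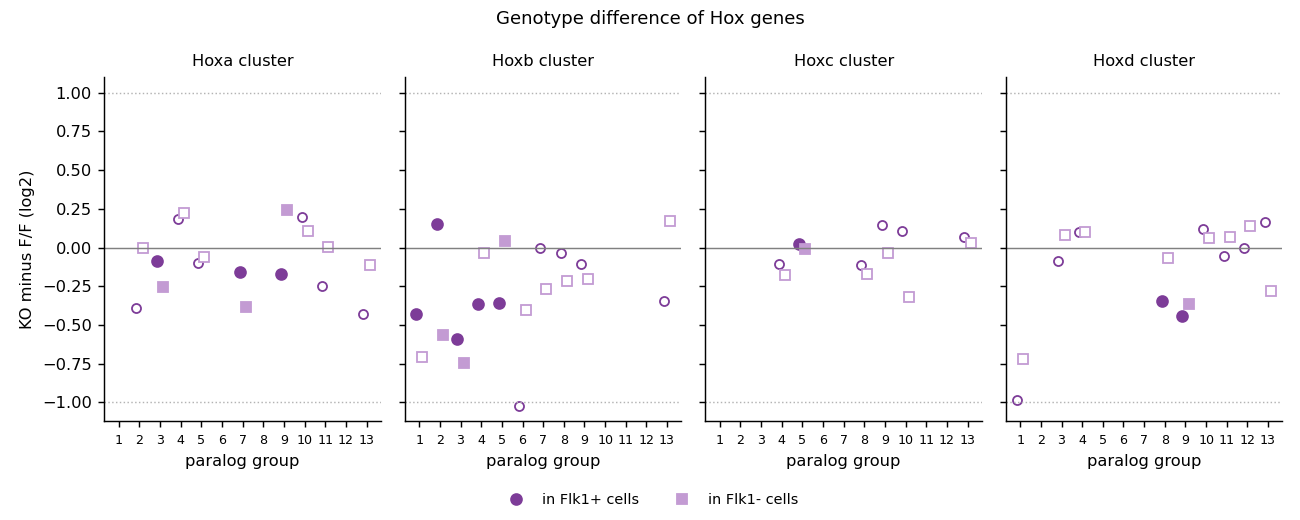
Genotype difference (KO minus F/F, log2) of each Hox gene by paralog group, 1 panel per cluster, for Flk1+ (circles) and Flk1- cells (squares). Filled symbols are genes above the floor on at least 1 of the 2 arrays compared, open symbols are below it on both, and dotted lines mark 2-fold. Hoxb3 lies low in both fractions at -0.59 and -0.74, and the open symbols near the lower dotted line are Hoxd1 and Hoxb6.

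Among the genes below the floor on all arrays, Hoxd1 and Hoxb6 stood apart, and both were chosen here after their values were seen. Hoxd1, the paralog of Hoxb1, was at 1.90 in KO Flk1+ and 2.89 in F/F Flk1+ cells, and at 1.63 in KO Flk1- and 2.35 in F/F Flk1- cells, so both KO values were below both F/F values. Hoxb6, a gene of lateral plate mesoderm, was at 2.11 in KO Flk1+ and 3.13 in F/F Flk1+ cells, and at 2.01 in KO Flk1- and 2.42 in F/F Flk1- cells.

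No fold is given for Hoxd1 and Hoxb6, since all their values were below the floor. Of the 6142 genes below the floor on every array, 8 (0.13%) were lower by 0.7 or more in KO Flk1+ than in F/F Flk1+ cells, and these 2 Hox genes were among them. In Flk1- cells 6 (0.0977%) were, with Hoxd1 among them. The size of 0.7 was set after the values were seen. The other 11 genes of groups 1 to 9 below the floor, Hoxa2, Hoxd3, Hoxa4, Hoxc4, Hoxd4, Hoxa5, Hoxb7, Hoxb8, Hoxc8, Hoxb9 and Hoxc9, had genotype differences from -0.39 to 0.18 in Flk1+ and from -0.27 to 0.22 in Flk1- cells.

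The comparison of Flk1+ with Flk1- cells asked whether Hox genes go with the mesoderm marker. It uses the same 4 arrays as the genotype comparison, so the 2 sets of values are not independent. In the knockout, Hoxb2 was at 4.58 in Flk1+ and 3.42 in Flk1- cells, 2.24-fold higher, the 1 gene of 7 above the floor that passed the 2-fold rule, where 1.62% of all genes were higher. None (0 of 7) was 2-fold lower, where 2.17% of all genes were. At 1.5-fold Hoxb2 was again the 1 gene higher, where 4.35% of all genes were, and 0 of 7 were lower, where 10.6% were. In F/F cells Hoxb2 was at 4.43 in Flk1+ and 3.98 in Flk1- cells, a difference of 0.45. The KO comparison rests on the array whose labels disagree on the day.

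In F/F cells 0 of 11 Hox genes were 2-fold higher in Flk1+ cells (1.2% of all genes) and 0 of 11 lower (1.51%). At 1.5-fold 1 of 11 was higher (3.48% of all genes), Hoxb4, with a difference of 0.62, and 0 of 11 were lower (4.76%). Set against the floor this was at least 1.19-fold, since Hoxb4 was below the floor in F/F Flk1- cells. Hoxd8, also below the floor in F/F Flk1- cells, was at least 1.22-fold higher. Hoxb5 was 0.53 higher, and Hoxa7 was 0.05 lower.

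The Hox genes above the floor lay on the Flk1+ side in both genotypes, 6 of 7 in KO cells with a median of 0.20 and 10 of 11 in F/F cells with a median of 0.23. In F/F cells, Hoxb1, Hoxb4, Hoxd8 and Hoxa9 passed only through the Flk1+ array and had to lie on that side. In KO cells, Hoxb3 passed only through the Flk1+ array and Hoxa9 only through the Flk1- array. Of all genes, 4425 of 10688 in KO and 5124 of 10622 in F/F cells were on the Flk1+ side, with medians of -0.08 and -0.01. Over all 34 with no floor the medians were 0.13 in KO and 0.13 in F/F cells, beside -0.009 and 0.006 for all genes. Those lower in Flk1+ cells were 11 and 8 of the 34, beside 8800 and 8295 of all 17097 genes. Among the Hox genes above the floor, the exceptions were Hoxa9 in KO cells, at 3.02 in Flk1+ and 3.26 in Flk1- cells, and Hoxa7 in F/F cells. Probe sets of the same gene differed in their sort difference by an SD of 0.40 in KO and 0.32 in F/F cells. Of the Hox genes above the floor, only Hoxb2 exceeded this in KO cells. In F/F cells Hoxb2, Hoxb4, Hoxb5 and Hoxd8 did.

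**Figure D3:**
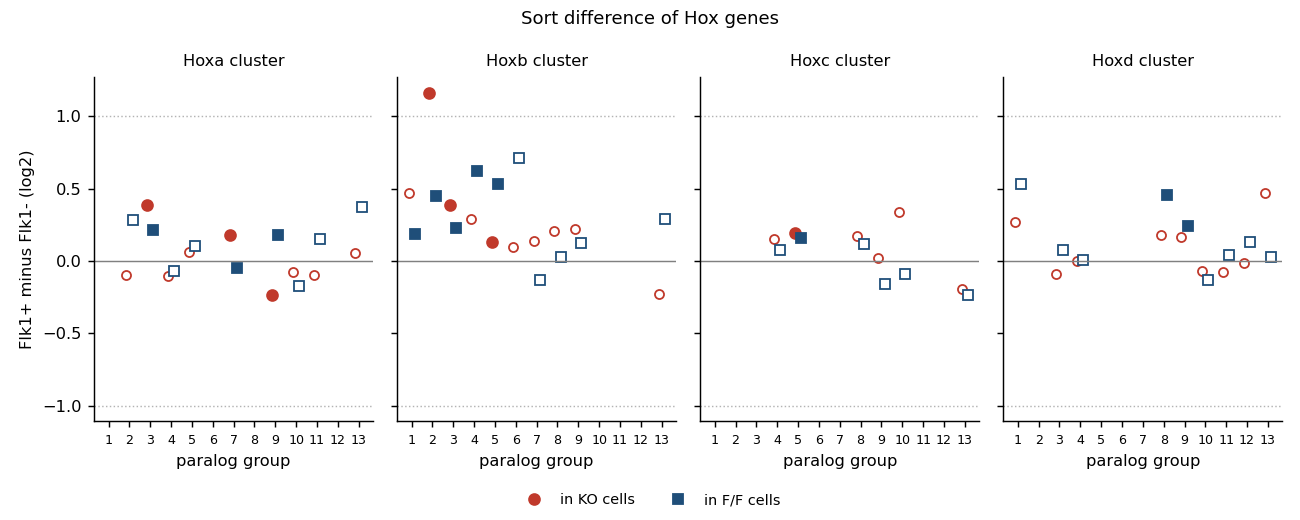
Sort difference (Flk1+ minus Flk1-, log2) of each Hox gene by paralog group, 1 panel per cluster, for KO (circles) and F/F cells (squares). Filled symbols are genes above the floor on at least 1 of the 2 arrays compared, open symbols are below it on both, and dotted lines mark 2-fold. Hoxb2 in KO cells, at 1.16, is the only point past a dotted line.

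Seen array by array and with no floor, F/F Flk1+ cells held the highest value of 18 of the 34 Hox genes, against 26.2% of all 17097 genes. KO Flk1- cells held the lowest value of 20 of the 34, against 26.9% of all genes. KO Flk1- is the array whose labels disagree on the day. Many of these 34 genes were below the floor on all arrays, and the counts are descriptions.

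Markers of several cell types differed between the same arrays. The lateral plate and cardiac mesoderm list (11 of 12 genes above the floor on at least 1 array, Tbx5 not) had a mean value of 4.82 in KO Flk1+, 6.07 in F/F Flk1+, 4.30 in KO Flk1- and 6.07 in F/F Flk1- cells. Fibroblast markers, listed because feeder cells can accompany stem cells (their use was not given in the sources used here), had means of 3.01 in KO Flk1+, 3.66 in F/F Flk1+, 2.66 in KO Flk1- and 3.05 in F/F Flk1- cells. Of these 12 markers 6 were above the floor on at least 1 array, while Col1a2, Dcn, Lum, Thy1, S100a4 and Fap were below it on all.

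Pluripotency genes went the other way, with means of 5.13 in KO Flk1+, 3.71 in F/F Flk1+, 7.35 in KO Flk1- and 6.44 in F/F Flk1- cells and 8 of 8 above the floor. Paraxial mesoderm markers, 7 of 9 above the floor, had means of 4.11 in KO Flk1+, 3.86 in F/F Flk1+, 3.53 in KO Flk1- and 3.64 in F/F Flk1- cells. Allantois and extraembryonic mesoderm markers, 6 of 9 above the floor without Tbx4, Tbx2 and Vcam1, had means of 4.61 in KO Flk1+, 5.61 in F/F Flk1+, 4.05 in KO Flk1- and 5.22 in F/F Flk1- cells. Neural and hindbrain markers, 6 of 9 above the floor without Sox1, Neurog2 and Map2, had means of 3.34 in KO Flk1+, 3.13 in F/F Flk1+, 3.72 in KO Flk1- and 3.62 in F/F Flk1- cells. Sox2, which is also in the pluripotency list, was the neural marker furthest from 0 for KO minus F/F in both fractions. It was at 4.71 in KO and 2.71 in F/F Flk1+ cells. In Flk1- cells it was at 7.34 in KO and 6.41 in F/F. The neural list's medians for KO minus F/F were 0.07 over 5 genes in Flk1+ and 0.14 over 6 genes in Flk1- cells. Of these genes, 2 were lower in KO in each fraction. Hemato-endothelial markers, 17 of 17 above the floor, had means of 4.98 in KO Flk1+, 5.47 in F/F Flk1+, 3.24 in KO Flk1- and 4.42 in F/F Flk1- cells. F/F Flk1+ was the highest and KO Flk1- the lowest, as in the fibroblast and allantois lists. The globin gene Hba-x was furthest from 0 for KO minus F/F, at -3.14 in Flk1+ and -7.77 in Flk1- cells, with both KO values below the floor. The list medians were -0.30 and -0.38. Endoderm markers, 9 of 9 above the floor, had means of 5.14 in KO Flk1+, 4.93 in F/F Flk1+, 5.18 in KO Flk1- and 5.43 in F/F Flk1- cells. The part of any of these cell types in the Hox values was not tested.

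The Cdx genes activate trunk Hox genes. Of the 3, Cdx2 was above the floor, at 3.35 in KO Flk1+ and 3.66 in F/F Flk1+ cells, and at 3.20 in KO Flk1- and 3.25 in F/F Flk1- cells. A separate Cdx2 probe set gave genotype differences of 0.00 in Flk1+ and 0.09 in Flk1- cells, against -0.31 and -0.05 here. Cdx1 ran from 1.99 to 2.15 and Cdx4 from 1.45 to 1.58, all below the floor.

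Of the TALE cofactors, 8 of 8 measured genes were above the floor on at least 1 array and 7 on all arrays. Meis1 was below it in KO Flk1- cells, at 3.10. Meis2 was at 5.91 in KO Flk1+ and 6.49 in F/F Flk1+ cells, and at 4.10 in KO Flk1- and 6.30 in F/F Flk1- cells. The KO Flk1- array, whose labels disagree on the day, stood apart from the other 3. Meis2 was 4.57-fold lower there than in F/F Flk1- cells, although its 2 probe sets gave -2.19 and -0.25. Pknox2 was lower in KO cells by 1.04 in Flk1+ (2.06-fold) and by 0.94 in Flk1- cells, but a separate probe set gave -0.11 and 0.00.

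Pbx3 was at 5.82 in KO Flk1+ and 6.50 in F/F Flk1+ cells, and at 5.74 in KO Flk1- and 5.71 in F/F Flk1- cells, so F/F Flk1+ was again the highest. The TALE medians were -0.14 in Flk1+ and -0.34 in Flk1- cells for KO minus F/F. For Flk1+ minus Flk1- they were 0.33 in KO and 0.19 in F/F cells. For KO minus F/F, 1 of 8 genes was 2-fold lower in each fraction and 0 were higher. Of all genes, 0.976% were lower and 0.873% higher in Flk1+ cells, and 0.949% and 0.389% in Flk1- cells. The TALE genes counted were Pknox2 in Flk1+ and Meis2 in Flk1- cells, and their separate probe sets, at -0.11 and -0.25, did not pass the rule.

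**Figure D4:**
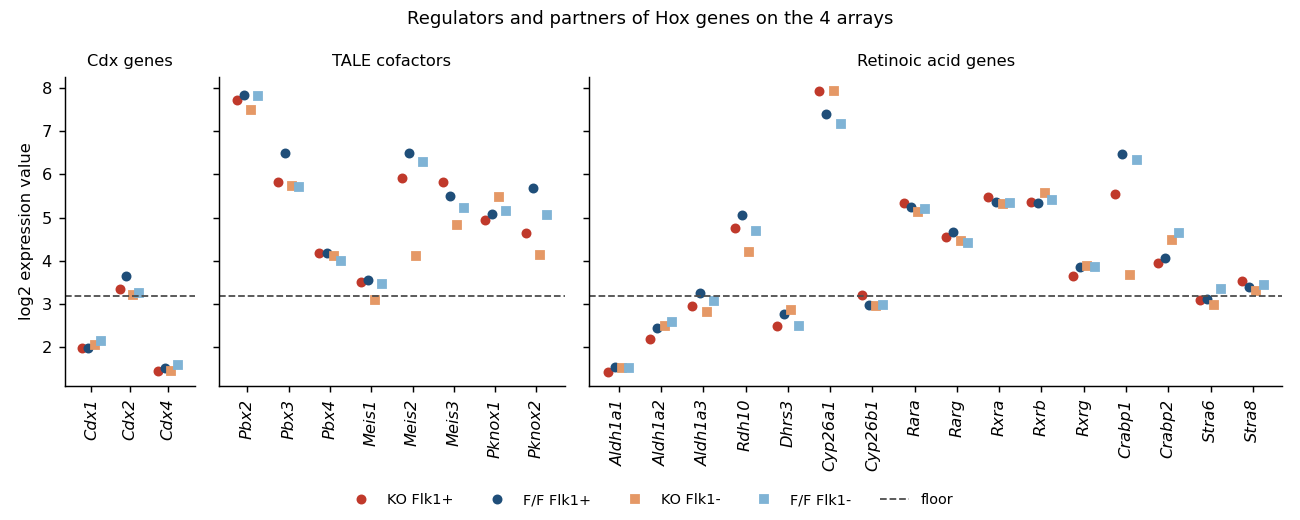
Log2 expression values of Cdx genes, TALE cofactors and retinoic acid genes, with 1 point per array (circles for Flk1+, squares for Flk1- cells) and the floor of 3.19 as a dashed line. Meis2 and Crabp1 are low on the KO Flk1- array, at 4.10 and 3.67, and Cdx2 is the Cdx gene with signal.

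Retinoic acid opens the Hox clusters from the anterior end. Crabp1, which binds retinoic acid in the cytoplasm, was at 5.56 in KO Flk1+ and 6.47 in F/F Flk1+ cells, and at 3.67 in KO Flk1- and 6.32 in F/F Flk1- cells, 6.28-fold lower in the last pair. That pair includes the array whose labels disagree on the day. Cyp26a1, which degrades retinoic acid and is itself induced by it, was at 7.92 in KO Flk1+ and 7.39 in F/F Flk1+ cells, and at 7.93 in KO Flk1- and 7.17 in F/F Flk1- cells. The enzyme gene Aldh1a2, which makes retinoic acid in the mesoderm, was below the floor on all arrays, from 2.20 to 2.58. For KO minus F/F the list's medians were -0.04 over 12 genes in Flk1+ and -0.06 over 11 genes in Flk1- cells. In Flk1- cells 1 gene was 2-fold lower, Crabp1, where 0.949% of all genes were.

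Among hindbrain and tail regulators, Wnt5a, a ligand of the tail bud, was 0.91 lower in KO than in F/F Flk1+ cells and 1.16 lower in KO than in F/F Flk1- cells. Fgf8, a streak and tail bud signal, was at 4.79 in KO Flk1+ and 4.09 in F/F Flk1+ cells, and Egr2, a hindbrain activator of Hox genes, was at 5.11 in KO Flk1- and 5.96 in F/F Flk1- cells. The medians over this list were 0.15 over 10 genes in Flk1+ and 0.06 over 9 genes in Flk1- cells.

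The chromatin regulators had small differences. Polycomb genes had medians of -0.01 over 25 genes in Flk1+ and 0.08 over 26 genes in Flk1- cells for KO minus F/F. Of them 0 were 2-fold apart. Of all genes, 0.976% were 2-fold lower and 0.873% higher in Flk1+ cells, and 0.949% and 0.389% in Flk1- cells. Differences were 0.43 for Cbx6 and -0.41 for Rbbp7 in Flk1+ cells and 0.37 for Phc1 in Flk1- cells. Phc3 was at 2.80 in KO Flk1- cells, below the floor, and at 3.22 in F/F Flk1- cells. Trithorax and H3K27 demethylase genes had medians of -0.04 and 0.13 over 11 genes, led by Men1 (-0.28) and Rbbp5 (-0.21) in Flk1+ cells and by Wdr5 and Psip1 (0.37 each) in Flk1- cells. Separate probe sets went the other way for Men1 (0.14 in Flk1+ cells) and Psip1 (-0.12 in Flk1- cells). The Flk1+ medians of these 2 lists, of the retinoic acid list and of the flanking genes described next changed sign under at least 1 alternative, as did the Flk1- median of the hindbrain and tail regulators.

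Genes beside the clusters were set next to the Hox genes as a check on the region. Evx1, a homeobox gene beside Hoxa13, was at 5.07 in KO Flk1+ and 5.78 in F/F Flk1+ cells, and at 4.81 in KO Flk1- and 4.84 in F/F Flk1- cells, with its highest value in F/F Flk1+ cells. The list with Evx1 holds homeobox genes close to the Hox genes in kind, and 3 of its 9 genes had signal. Its other named genes, Meox1 and Gsx1, were not listed as neighbours of the clusters and are no check on the region. Meox1 was 0.45 higher in KO than in F/F Flk1+ cells and at least 1.16-fold higher in KO than in F/F Flk1- cells. Gsx1 was 0.12 lower in KO than in F/F Flk1- cells. The flanking genes had medians of -0.04 over 19 genes in Flk1+ and 0.10 over 20 genes in Flk1- cells. In Flk1+ cells Nfe2l2 and Mtx2, near Hoxd, were furthest from 0 at -0.70 and -0.66, although a separate Nfe2l2 probe set gave 0.04, and in Flk1- cells Nfe2, an erythroid factor gene near Hoxc, was at least 1.73-fold lower and Snx10, near Hoxa, 0.91 higher. The other RNAs of the clusters on the array, Hoxa11os, Hoxaas2, Hoxb5os and Hoxd3os1, were below the floor on all arrays, at most 1.95.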

How the data were processed

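Gene expression was measured on 4 Affymetrix arrays, 1 per group. The values are log2, as deposited by the authors, and the submitters' processing notes name RMA and limma with no version or role. From 45141 probe sets, 104 controls were left out. The others were named with the platform annotation, 28898 with 1 gene, 551 with several (not named) and 15588 with none. The probe set with the highest mean stood for each of 17097 genes. A gene entered a comparison if above the floor (40th percentile, 3.19) on at least 1 of its 2 arrays. It was counted at a log2 difference of 1 (2-fold) or at 1.5-fold. Where 1 value lay below the floor, the fold was computed against the floor as a bound.

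There were no replicates, so no test was run, and the number of arrays limits the precision. Members and lists were chosen with earlier results of these data known. Hox genes of groups 1 to 9 are named, those of groups 10 to 13 given by their range, and of each other list the 2 genes furthest from 0 per genotype comparison are named. A planned rank correlation of level with paralog group is not reported, since levels of different probe sets cannot be compared. Alternatives were other floors, sizes, probe set rules, quantile normalization, centring and cyclic loess (limma 3.58.1, span 0.3, 3 rounds). Promoters are from RefSeq, GRCm38.p6, searched over 250 bases.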

Additional observations from a re-analysis of the deposited data

Results flagged for a closer look

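With 1 array per group, genotype differences of opposite sign in the 2 fractions drew attention for 4 Hox genes, and the differences between fractions were not tested. Each value takes the KO minus F/F difference of the Flk1+ fraction and subtracts that of the Flk1- fraction. All use the KO Flk1- array, whose labels disagree on the day. For each gene, at least 1 of its 2 genotype differences was smaller than the SD between probe sets. That SD was 0.33 in Flk1+ and 0.29 in Flk1- cells. Hoxb2 had 0.71, from 0.15 in Flk1+ and -0.56 in Flk1- cells. Hoxb5 had -0.40, from -0.36 and 0.04, and the Flk1- difference became -0.02 when arrays were centred. Hoxa9 had -0.41, from -0.17 and 0.24, and -0.06 once low values were raised to the floor. Hoxc5 had 0.0337, from 0.02 and -0.01, and the Flk1- difference became 0.01 after quantile normalization.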

How the results depend on the processing

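The Hox medians kept their sign in all 10 settings. They ran from -0.36 to -0.09 for KO minus F/F in Flk1+ and -0.42 to -0.06 in Flk1- cells. For Flk1+ minus Flk1- they ran from 0.13 to 0.38 in KO and 0.13 to 0.25 in F/F cells. All settings but that with no floor kept the floor rule, which fixed the direction of some genes. A kept sign is therefore no separate support. With no floor the medians were -0.10, -0.06, 0.13 and 0.13 in the same order, beside -0.01, 0.02, -0.009 and 0.006 for all genes. At the 50th percentile floor the Flk1+ genotype median of -0.09 stood beside -0.06 for all genes, so it was hardly apart from them there. At that floor Hoxb3 and Hoxb5 passed only through the F/F Flk1+ array and were bound to be lower. Raising the floor to the 50th percentile left 5 Hox genes with signal in place of 11, and 16 had signal with the floor taken from all probe sets. A 30th percentile floor, chosen after seeing the data, also gave 16. In both cases the 16 included Hoxa13, at 2.84 in F/F Flk1+ cells, and Hoxc13, at 2.80 in KO Flk1- cells. The absence of signal in groups 10 to 13 therefore held at the main floor and not at these lower ones. KO minus F/F in Flk1+ gained 1 gene 2-fold lower, Hoxb6, with the floor from all probe sets, with none or with the mean of probe sets, and 1 at 1.5-fold, Hoxb3. In Flk1- cells 1 gene, Hoxb3, was lower with the mean of probe sets and at 1.5-fold. Flk1+ minus Flk1- had 1 gene higher at 1.5-fold in F/F cells, Hoxb4, and 0 at 3-fold in KO cells. Centring moved the median of all genes for Flk1+ minus Flk1- in KO cells from -0.08 to 0.09, and relative to it the Hox median was 0.25, beside 0.27 as deposited. In Flk1- cells the KO minus F/F differences of Hoxa3 (0.01 with the mean of probe sets), Hoxb5 (-0.02 when centred) and Hoxc5 (0.01 after quantile normalization or cyclic loess) changed sign. No paired analysis was possible because each group has 1 array and so no replicate numbers to pair. Of the 34 Hox genes, 23 were below the floor on all arrays, which limits what their differences show.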
